A study of Mus musculus with 2 samples.

Results

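The miRNA genes Mir6896 to Mir7093 are a run of late-numbered mouse genes listed as candidates for mirtrons, miRNAs cut out of introns by splicing. They were chosen by symbol alone: every gene in the count tables whose identifier carries a symbol from Mir6896 to Mir7093 in GENCODE M21, with any suffix. This gave 177 of the 1973 listed miRNA genes. A further 22 genes of that number range in GENCODE M21 were not analysed here. Short RNA, labelled as under 30 bases, was sequenced from the liver of B6NCrl mouse embryos at day 12.5, with males and females pooled and no treatment or engineered allele named. Replicate 1 came from a pool of 120 embryos and replicate 2 from another of 88. Both belong to a single group, so no condition is compared. The labels give both pools 1 donor identifier, so the spread between them may be partly technical.

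A canonical miRNA is cut from its primary transcript by the nuclease Drosha and then by Dicer. A mirtron skips the Drosha step: the spliceosome releases a short intron as a lariat, which is debranched and folds into a hairpin that Dicer can cut. In a tailed mirtron only 1 end of the hairpin is made by splicing, and the rest of the intron hangs on as a tail that has to be trimmed. Splicing marks such hairpins, since introns begin with GU, end with AG, and carry a run of pyrimidines just before that AG. Mirtrons are generally known to accumulate at low levels, though some whole-intron genes described below had far more counts than any member. In a bulk tissue sample, fewer cells that make a miRNA and less of it per cell cannot be told apart.

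The hairpins below show the types of position found among the members with 10 or more counts. They are GENCODE M21 sequences on mm10, written 5′ to 3′ as RNA, with the annotated mature arms (RefSeq, GRCm38.p6) in capitals.
Mir6944: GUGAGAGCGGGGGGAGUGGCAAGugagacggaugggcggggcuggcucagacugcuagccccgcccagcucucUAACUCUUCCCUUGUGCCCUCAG
Mir7068: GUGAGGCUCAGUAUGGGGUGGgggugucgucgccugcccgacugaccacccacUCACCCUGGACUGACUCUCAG
Mir6946: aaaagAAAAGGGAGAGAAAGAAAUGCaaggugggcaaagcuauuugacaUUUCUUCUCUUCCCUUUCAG
Mir6897: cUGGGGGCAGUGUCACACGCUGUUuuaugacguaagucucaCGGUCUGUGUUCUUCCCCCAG
Mir6936: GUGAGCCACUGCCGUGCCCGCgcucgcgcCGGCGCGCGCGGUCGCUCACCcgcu
Mir6903: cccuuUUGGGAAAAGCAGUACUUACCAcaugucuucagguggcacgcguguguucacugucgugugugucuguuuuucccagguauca
Mir7036b: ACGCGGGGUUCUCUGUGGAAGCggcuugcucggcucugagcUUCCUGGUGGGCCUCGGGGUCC

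Mir6944 (chr13:55477681-55477776, minus strand) and Mir7068 (chr8:72470016-72470089, minus strand) span whole introns, of 96 bases in Dbn1 and 74 bases in Cherp. Both begin with GU and end with AG. Mir6946 (chr14:20690635-20690703, plus strand) and Mir6897 (chr1:36144252-36144313, minus strand) form the 3′ end of longer introns, of 683 bases in Sec24c and 1780 bases in Uggt1. They end with AG after a pyrimidine-rich arm and have no GU at their start. Mir6936 (chr11:120624823-120624876, minus strand) starts at the first base of a Sirt7 intron of 66 bases and stops 12 bases before its end. Mir6903 (chr1:133726558-133726645, minus strand) runs 6 bases past the 3′ end of an Atp2b4 intron of 1159 bases. Mir7036b (chr5:34574151-34574213, plus strand) lies 237 bases into an Add1 intron of 24255 bases, 23955 bases from its 3′ end. It also overlaps an Add1 exon of another transcript, and neither end of its hairpin matches an end of that intron.

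Most members lay where a mirtron would, but as a tailed mirtron rather than a whole intron. Of the 177 hairpins, 15 spanned a whole annotated intron of their own strand, with both ends within 5 bases of the intron's ends. A further 150 ended within 5 bases of an intron's 3′ end with the 5′ end farther inside, as in a mirtron with a 5′ tail. In 4 the 5′ end matched the start of an intron, 1 lay well inside an intron, and 7 fitted none of these. Of those 7, Mir6901, Mir6903, Mir6904, Mir6914, Mir6950 and Mir7029 ran 6 or 7 bases past the intron's end, and Mir7025 began 30 bases before an intron of Pdgfra. The last base of the hairpin was exactly the last base of an intron in 164 members, or 92.7%. Together 165 members, or 93.2%, matched the 3′ end or the whole of an intron, against 36 of 1796 other listed miRNA genes, or 2.00%. Of those 1796, 79 were not found in GENCODE M21 and so could not match. The members are listed as mirtron candidates, so their match to intron ends is no independent test of that name. The positions of the hairpins come from the annotation, not from reads, and gene counts do not show which arm or which end was sequenced.

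**Figure D1:**
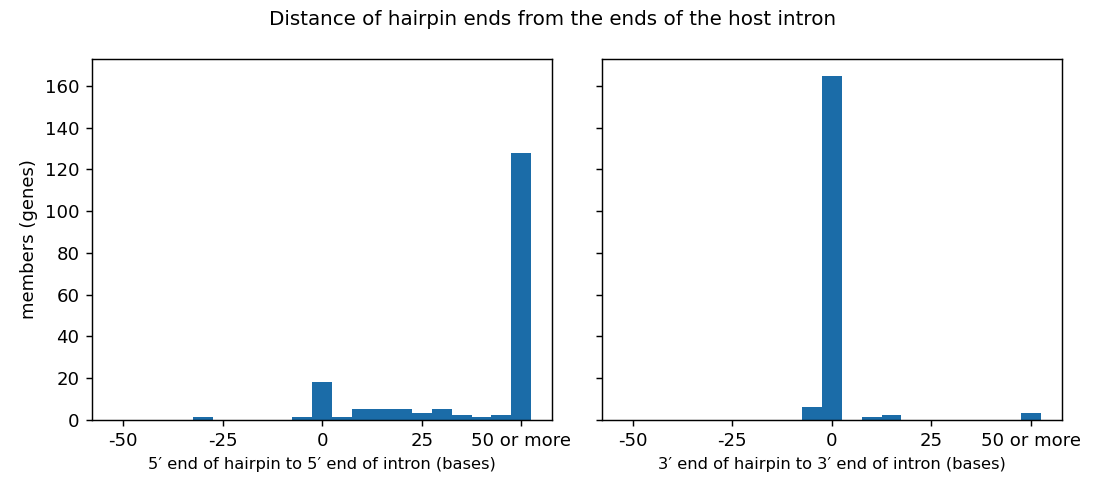
Distance in bases from each end of a member's hairpin to the matching end of its host intron, as a count of genes (177 in each panel; positive values lie inside the intron, and distances of 50 or more are in the last bar). The 3′ ends pile up at 0, where 164 members lie, while only 18 members have their 5′ end at 0 and most lie far inside the intron.

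The introns that held the tailed hairpins were far longer than the hairpins. For the 150 members at a 3′ intron end, the intron's median length was 494 bases, from 77 to 36269, and the sequence left before the hairpin ran from 7 to 36205 bases with a median of 427.5. The 15 whole introns measured 67 to 137 bases, with a median of 83. Member hairpins were 52 to 137 bases long with a median of 66, against a median of 94 for the other listed genes. All are longer than the labelled size of the sequenced RNA, so a count here covers at most part of a hairpin. Whether such reads came from the hairpin or from other RNA of the host gene was not tested. All 177 members had a protein-coding host, 173 different genes in all. Skiv2l, Arap3, Srebf1 and Cmip each held 2 members, and no host held more.

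The letters at the hairpin ends followed these positions. The last bases were AG in 164 members, the same 164 that ended on the last base of an intron, and in 114 of the 1717 other listed hairpins with a sequence, or 6.64%. The first bases were GU in 31 members, among them 17 of the 18 whose 5′ end was the first base of an intron. From the base before that AG back over 20 bases, 76.6% of positions were pyrimidines in the members and 51.6% in the other hairpins. Over the next 20 bases upstream the shares were 49.7% and 50.5%. The annotated arms differ in the same way. The 3p arms of the members (154 sequences) were 71.6% pyrimidines, with C at 40.7%, and the 5p arms (156 sequences) were 32.2% pyrimidines, with G at 45.4%. In the other listed genes the 3p and 5p arms held 53.5% and 49.7% pyrimidines. A 3p arm ended with AG in 121 of 154 members, or 78.6%, against 53 of 468 other 3p arms, or 11.3%.

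**Figure D2:**
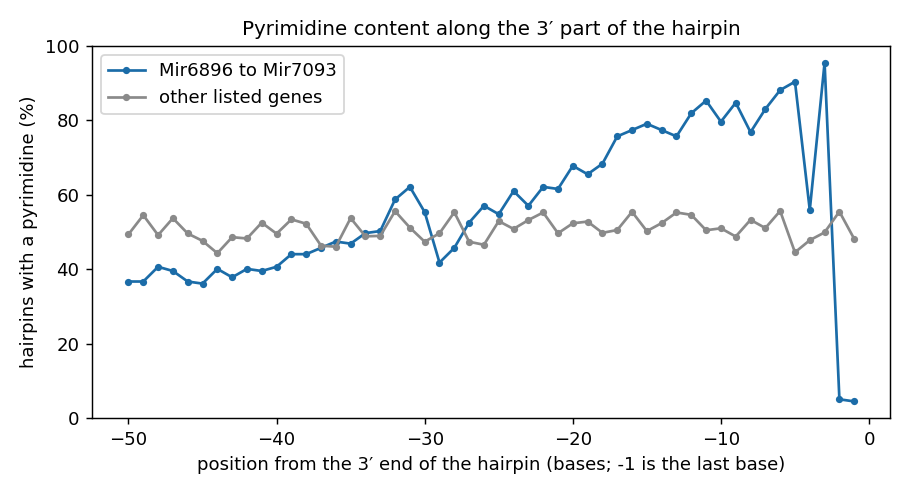
Share of hairpins, in percent, with a pyrimidine at each position counted back from the 3′ end (−1 is the last base), for the 177 members and for the other listed genes with a sequence. The members rise towards the 3′ end and drop at the last bases, where the AG of the intron lies, to 4.52% at −1, where the other genes have 48.2%.

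Most of these genes were sequenced at least once, yet none reached 100 counts. Of the 177 members, 132 had at least 1 sense count over both libraries, or 74.6%, and 92 had one in each library. Another 18 were seen only in replicate 1 and 22 only in replicate 2. Among all other listed miRNA genes 622 of 1796, or 34.6%, had a sense count. At a higher level the order was the other way round: 30 members, or 16.9%, had 10 or more counts, against 434 of the other genes, or 24.2%. Counts of 1 to 9 were found in 102 members, or 57.6%, and in 188 other genes, or 10.5%. The median member had 3 counts and the median other gene had 0. Among genes with any count the medians were 4 and 60.5. Genes are not replicates, so these shares are descriptions. Many of the other genes share sequence with another copy, and reads aligned to several places are listed apart from the genes. Whether this lowers the share of other genes with a count was not tested. A run of 20 bases was shared in 927 of the 1796 other genes and in 2 members, Mir6970 and Mir7065, each with 1 count. The 79 other genes not found in GENCODE M21 had no sequence to compare.

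Sets of genes more like the members were also described. Of the 156 listed genes from Mir1000 to Mir3999, a lower number range, 64.7% had a count and 37.8% had 10 or more, with 20 genes at 100 or more. Of the 36 other listed genes that end at an intron's 3′ end or span an intron, 63.9% had a count and 9 genes had 10 or more. Of the 677 other genes within an intron of any kind, these 36 included, the shares were 48.0% and 32.5%.

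**Figure D3:**
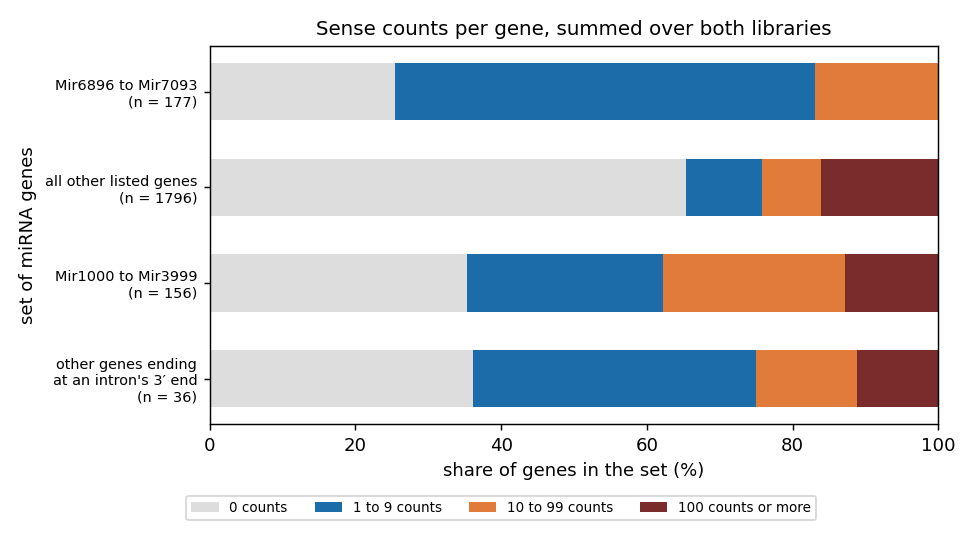
Share of genes, in percent, with 0, 1 to 9, 10 to 99 and 100 or more sense counts over both libraries, for the members and for 3 sets of other listed genes, of which the last 2 overlap with the first and with each other. The band of 1 to 9 counts takes up 57.6% of the members and 10.5% of all other listed genes, and the members have no gene at 100 or more.

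Together the members held 520 of 3447858 sense counts in replicate 1 and 475 of 3534816 in replicate 2. As a share of all sense counts on miRNA genes this was 0.0151% (95% exact Clopper-Pearson interval 0.0138 to 0.0164) and 0.0134% (0.0123 to 0.0147), a mean of 0.0143% ± 0.00116 (SD, n = 2). The intervals of the 2 libraries overlap, and they cover counting error only, since no molecular identifiers are named for these reads. Beside these, a single count (1) lay on the opposite strand, on Mir7036b in replicate 1. The 45 members with 0 counts may still be present at up to 0.870 CPM in replicate 1 and 0.849 CPM in replicate 2, the level of 3 counts. CPM here is counts per 1000000 sense counts. As a check of the tissue, the hepatocyte miRNA Mir122 stood at 60913 CPM in replicate 1 and 47128 CPM in replicate 2, and the erythroid Mir451a at 12422 and 32496 CPM. The 3 neuronal Mir124a genes had 0 counts, as did Mir133a-1, Mir133a-2 and Mir1a-1 of muscle. Of the other neuronal genes on the list, Mir9-2 had 0 counts and Mir9-3 had 6 and 4. Other miRNAs known from outside the liver were present, with Mir375 of pancreatic islets at 2303 and 2086 CPM and Mir206 of muscle at 129 and 288 CPM. The part of such cells in the members' counts was not tested.

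The counts were spread over many genes. The 3 highest members held 19.4% of the 995 sense counts, and the 30 with 10 or more held 61.4%. Of these 30, 8 had over 20 counts and 22 had 10 to 20. Just inside the threshold stood 5 genes with 10 counts, Mir6934, Mir7063, Mir7081, Mir7089 and Mir7091, and just outside it 7 genes with 9. By position, 5 of the 15 whole-intron members reached 10 counts (Mir6944, Mir7068, Mir7082, Mir6981 and Mir7091), with a median of 5 counts over all 15. Of the 150 at a 3′ intron end 22 did, with a median of 3. These shares, 33.3% and 14.7%, rest on few genes.

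Mir6944, the whole intron of Dbn1, which encodes the actin-binding protein drebrin, had the most counts, 40 in replicate 1 and 44 in replicate 2. It was the only member at or above 10 CPM in both libraries, with 12.0 ± 0.598 CPM (SD, n = 2). Mir7036b, in the membrane skeleton gene Add1, followed with 36 and 31 counts. Per 100 bases of hairpin Mir7036b was first with 106 counts and Mir6944 next with 87.5. The order of the pair thus depends on whether length is taken into account. Whether counts of such short RNA scale with hairpin length was not tested. Mir6936, in the deacylase gene Sirt7, had 21 counts in each library, or 77.8 per 100 bases. These 3 lay above the fourth member, Mir7069, with 43.5 per 100 bases. Mir7036b and Mir6936 do not end at an intron's 3′ end, and Mir6944 spans a whole intron. None of the 3 highest members thus has the most common position, the 3′ end of a longer intron. Mir7036b and Mir6936 also overlap an annotated exon of their host on the same strand, as do 8 of the 30 members with 10 or more counts. The part of exon fragments in their counts was not tested.

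**Figure D4:**
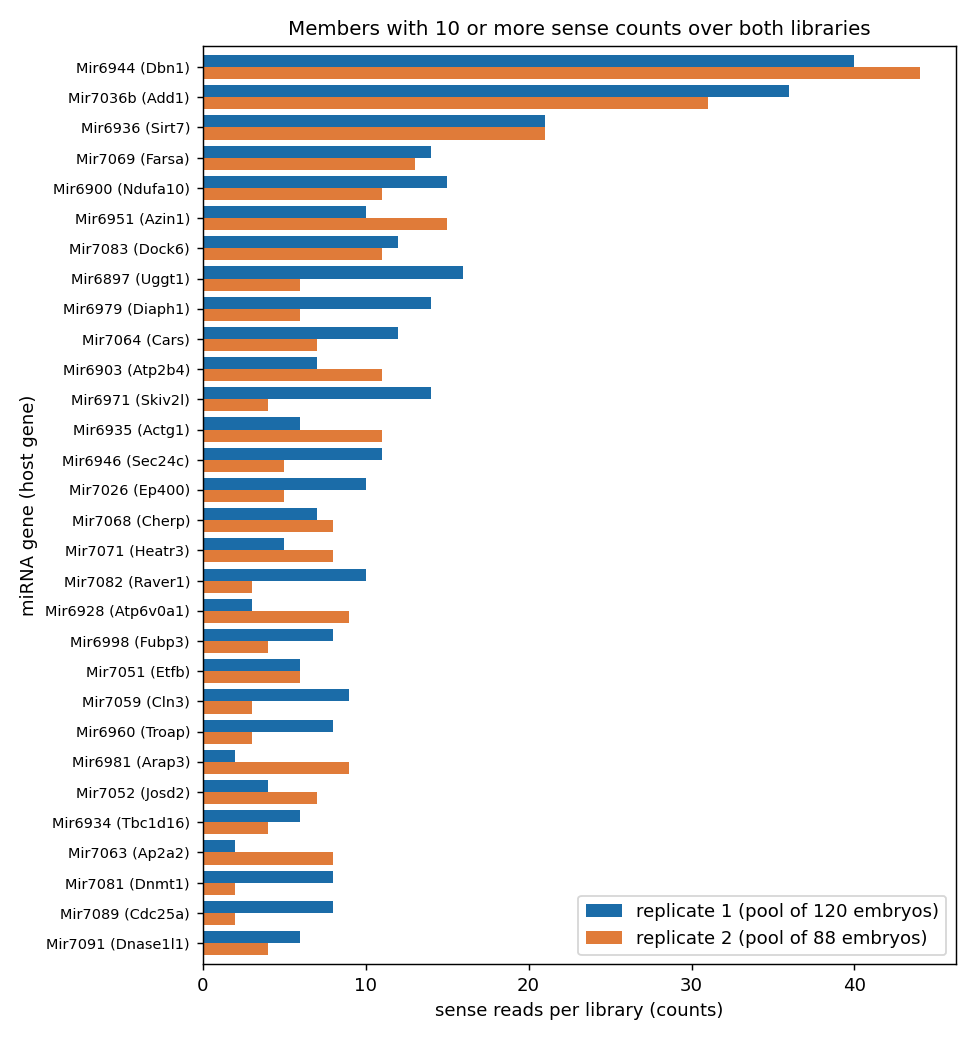
Sense counts per library for the 30 members with 10 or more counts over both libraries, with the host gene in brackets; blue bars are replicate 1 and orange bars replicate 2. Mir6944, Mir7036b and Mir6936 exceed 20 counts in each library, and for the members further down the bars of the 2 libraries often differ in length in either direction.

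The other counted members are given by what their host genes do, a grouping made after their values were seen and used only for order. Hosts of protein synthesis and RNA handling are given first. Mir7069, in Farsa, which encodes a subunit of phenylalanyl-tRNA synthetase, had 14 counts in replicate 1 and 13 in replicate 2. Its intron is 90 bases long, so only 28 bases precede the hairpin. Mir7064, in the cysteinyl-tRNA synthetase gene Cars, had 12 and 7 counts. Mir6971, in Skiv2l, an RNA helicase that works with the cytosolic exosome, had 14 and 4. The second Skiv2l member, Mir6970, spans a whole intron of 67 bases and had 1 count. Mir7068 in Cherp had 7 and 8 counts, Mir7082 in the splicing cofactor gene Raver1 had 10 and 3, and Mir6998 in Fubp3 had 8 and 4.

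Members in genes of metabolism and of the secretory and membrane system had 10 to 26 counts each. Mir6900, in the respiratory complex I gene Ndufa10, had 15 and 11 counts in replicates 1 and 2. Mir6951, in the antizyme inhibitor gene Azin1, which acts in polyamine synthesis, had 10 and 15. Mir7051, in the electron transfer flavoprotein gene Etfb, had 6 in each library. In membrane genes, Mir6897 in Uggt1, a folding sensor of the endoplasmic reticulum, had 16 and 6 counts, and Mir6946 in the COPII coat gene Sec24c had 11 and 5. The lysosomal gene Cln3 held Mir7059 with 9 and 3. The proton pump gene Atp6v0a1 held Mir6928 with 3 and 9, and the clathrin adaptor gene Ap2a2 held Mir7063 with 2 and 8. Mir6903 had 7 and 11 counts and runs 6 bases into an exon of the calcium pump gene Atp2b4. The direction between the libraries thus varied among these genes.

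The last hosts are genes of the cytoskeleton, of small GTPases and of chromatin and the cell cycle, whose members here had 10 to 23 counts each. Mir6979, in the formin gene Diaph1, had 14 and 6 counts, and Mir6935, in the gamma actin gene Actg1, had 6 and 11. Mir7083, in Dock6, an activator of small GTPases, had 12 and 11. Mir6981, the whole intron of the GTPase regulator gene Arap3, had 2 and 9, and Mir6934 in Tbc1d16 had 6 and 4. Mir7026, in the chromatin remodelling gene Ep400, had 10 and 5 counts. Mir7081, in the maintenance DNA methyltransferase gene Dnmt1, and Mir7089, in the cell cycle phosphatase gene Cdc25a, each had 8 and 2. Mir6960, in the mitotic gene Troap, had 8 and 3. The remaining counted members were Mir7071 in Heatr3 with 5 and 8, Mir7052 in Josd2 with 4 and 7 and Mir7091, the whole intron of Dnase1l1, with 6 and 4. Expression of the hosts was not measured in these libraries.

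An exon of the host, from another transcript or next to the intron, overlapped 39 members on the same strand, and 29 of these, or 74.4%, had a count, against 103 of the 138 without such an overlap, or 74.6%. Of the overlapping members 8, or 20.5%, had 10 or more counts, against 22 of the others, or 15.9%. The 39 held 284 of the 995 sense counts, with medians of 4 in these and 3 in the others, and Mir7036b (67) and Mir6936 (42) are among them. The minimum free energy predicted for the hairpin had a median of −27.8 kcal/mol in the 30 members with 10 or more counts, −27.1 in the 102 with 1 to 9 and −25.2 in the 45 with 0. Median hairpin lengths in these groups were 67.5, 67 and 64 bases, median GC contents 59.0%, 58.6% and 57.1%, and median host intron lengths 625, 357.5 and 575 bases. No test was made of these differences.

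The mature arms of the highest members are printed to show their seeds, bases 2 to 8, in capitals; the seed is the part that pairs with target mRNAs. RefSeq (GRCm38.p6) held 310 mature sequences for 162 of the 177 members.
mmu-miR-6944-5p: gUGAGAGCggggggaguggcaag
mmu-miR-6944-3p: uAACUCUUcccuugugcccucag
mmu-miR-7036b-5p: aCGCGGGGuucucuguggaagc
mmu-miR-7036b-3p: uUCCUGGUgggccucggggucc
mmu-miR-6936-5p: gUGAGCCAcugccgugcccgc
mmu-miR-6936-3p: cGGCGCGCgcggucgcucacc
mmu-miR-7069-5p: uUGGGGGCcugggagggugacac
mmu-miR-7069-3p: cCUGCCCUgccaaccccuaca
mmu-miR-6900-5p: uGCCAGGAgaagccuagagccguc
mmu-miR-6900-3p: uGGUGAUGggcucucuuguag
mmu-miR-7083-5p: uCGGGGCUggacaagcagaga
mmu-miR-7083-3p: uCUGCUCUccuggaccccag
mmu-miR-6897-5p: uGGGGGCAgugucacacgcuguu
mmu-miR-6897-3p: cGGUCUGUguucuucccccag
mmu-miR-6903-5p: uUGGGAAAagcaguacuuacca
mmu-miR-6935-3p: uGUUCUUUgucuuuccacag
mmu-miR-6946-5p: aAAAGGGAgagaaagaaaugc
mmu-miR-6946-3p: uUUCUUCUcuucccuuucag
mmu-miR-7026-5p: uUCUGAGAccaugggguauau
mmu-miR-7026-3p: uGUGCUUUcuggucuuggcuuag

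The 5p arms of Mir6944 and Mir6936 begin with the GUGAG of their intron's start, which sets most of their seed letters. The seeds of the 5p arms of Mir7069 and Mir6897 are rich in G, as the 5p arms of the members were in general. In Mir6944, Mir6897, Mir6935, Mir6946 and Mir7083 the 3p arm runs to the last base of the intron. Over all members with a 3p arm, 116 of 154 ended on the last base of the hairpin and 139 within 2 bases of it. Which arm was sequenced is not known from the counts.

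The 310 mature sequences of 162 members had 285 distinct seeds. Of these, 21 were shared between members, by at most 3 genes each, and 45 members had a shared seed. A seed group of 3 that holds a counted member is that of Mir7068, shown here with the shared seed in capitals.
mmu-miR-7068-3p: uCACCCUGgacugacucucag
mmu-miR-7018-3p: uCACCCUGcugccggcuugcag
mmu-miR-7023-3p: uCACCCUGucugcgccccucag

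Mir7068 had 15 counts over both libraries, and Mir7018, the whole intron of the perlecan gene Hspg2, had 8. Mir7023, in Pik3cd, had 1. All 3 arms end with CAG, and they differ in between. In all, 40 of the 285 seeds also occur in a mouse miRNA outside the members. The seed of miR-6932-3p and miR-7039-3p, for example, is that of the minor arms miR-26a-2-3p and miR-26b-3p. Some of the outside miRNAs, such as miR-7015-3p and miR-7092-3p, have numbers in the range of the members but were not analysed here.

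With TMM scaling no member was called different between the libraries, at counts that leave wide intervals. The 464 miRNA genes with at least 10 sense counts were compared by an exact binomial test (two-sided), with edgeR's TMM factors applied to the library sizes and p-values adjusted by Benjamini-Hochberg. At an adjusted p of 0.05, 0 of the 30 members tested were called, and 2 had an unadjusted p below 0.05. Over all genes tested 40.3% were called, so the members' share was below that of all genes, which mostly carry far more reads. Among the 138 other genes with no more counts than the highest member, 7 were called, or 5.07%. These genes were not matched to the members count by count. Their median absolute log2 ratio between the libraries was 0.461, against 0.807 in the 30 members. edgeR's negative binomial exact test with an assumed coefficient of variation of 0.1 also called 0 members, with 1 at an unadjusted p below 0.05. That test called 2.59% of all genes, so 0 of 30 members is near its background. Scaled to library totals instead of by TMM, 1 member, Mir6971, was called by the binomial test, which then called 38.4% of all genes. No member (0 of 30) was called with DESeq2 size factors, which called 37.7% of all genes, or with both strands counted, which called 41.2%. With every gene of at least 1 count tested, 0 of 132 members and 23.7% of all genes were called. In these 3 settings 1, 2 and 4 members had an unadjusted p below 0.05. This test compares 2 libraries, not conditions.

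As a log2 ratio of replicate 2 over replicate 1, Mir6944 stood at 0.16 (95% interval −0.49 to 0.82) and Mir7036b at −0.19 (−0.93 to 0.54). Mir6971 had the lowest adjusted p of the exact binomial test, 0.0742, with a log2 ratio of −1.66 (−3.84 to −0.11). Mir6981, with 2 and 9 counts, had 1.95 (−0.08 to 5.45) and an adjusted p of 0.0856 in the same exact test. Of the 30 members 12 had a log2 ratio above 0 and 18 below, with a median of −0.29. Over all 132 members with a count 74 were above 0 and 58 below, with a median of 0.03. TMM scaling puts a gene with equal counts in both libraries at 0.03, so such ties are counted as above 0. Mir6936 and Mir7051 are ties of this kind among the 30. These numbers therefore do not show a balance towards replicate 2. Over all 177 members the log2(count + 1) of the libraries had a Pearson correlation of 0.722 and the counts a Spearman correlation of 0.675. These are across genes that share the same 2 libraries, and at such low counts they are descriptions only.

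**Figure D5:**
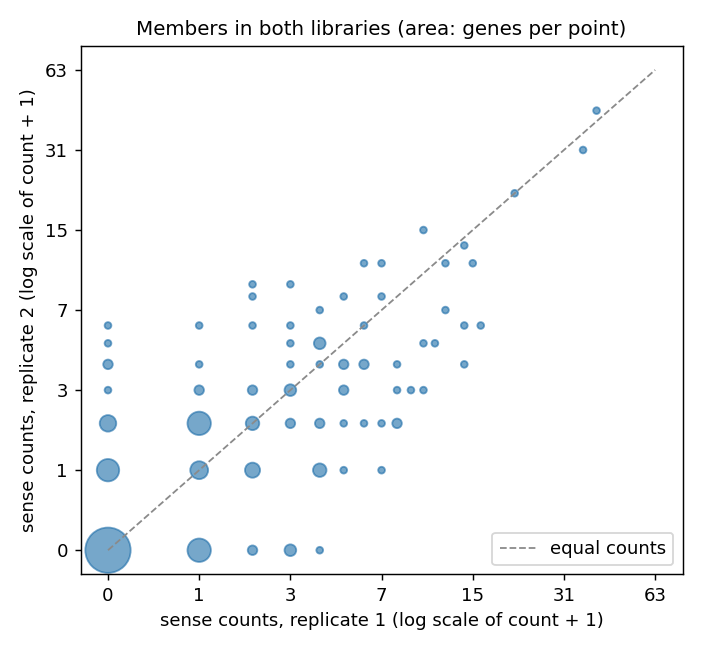
Sense counts of the 177 members in replicate 1 and replicate 2, on log axes of count + 1; the area of a point grows with the number of genes at it, and the dashed line marks equal counts. Most members lie near the lower left and scatter on both sides of the line, and the 3 points farthest up are Mir6944, Mir7036b and Mir6936.

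Some whole-intron genes with lower numbers had far more counts than any member, and others did not. Of the 36 other listed genes that span an intron or end at its 3′ end, 4 had over 84 counts, the highest member's level. These 4 were Mir382, Mir877, Mir1981 and Mir3102. Mir382, at a 3′ intron end of Mirg, had 29529 and 25699 counts in replicates 1 and 2. Its hairpin runs 2 bases past that intron end, so it is among the 36 only through the tolerance of 5 bases. Mir877, the whole intron of Abcf1, had 361 and 378 counts in replicates 1 and 2. Mir1981, the whole intron of Marc2, had 743 and 674, and Mir3102, the whole intron of Arhgef17, had 243 and 244. Mir702 in Plod3 had 85 and 98. Its hairpin begins 9 bases before the intron, so it is not among the 36. Mir1224, the whole intron of Vwa5b2, had 2 and 6 and lay within the range of the members, as did Mir1982 in Oaz1 with 9 and 10 and Mir3547 in Baiap3 with 2 and 4, both whole introns. Mir877, Mir1981, Mir3102 and Mir702, with 183 to 1417 counts over both libraries, each exceeded the highest member, Mir6944 with 84. The hairpins of Mir877, Mir1981 and Mir3102 have the same form as that of Mir6944, a whole intron with both ends at splice sites.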

How the data were processed

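The authors deposited 1 table of raw read counts per miRNA gene and library, for both strands, the sense strand and the opposite strand; per the file lists deposited with them, mm10 and GENCODE M4 were used. Aligner and counter: not given in the sources used here. Sense counts were used. The 4 lines that name no gene held 68.8% and 67.9% of 11057424 and 11013976 reads (replicates 1 and 2) and were left out. Names, introns and hairpins came from GENCODE M21, where 1894 listed genes and all 177 members (same identifier version) were found, and mature sequences from RefSeq. An intron's end matched within 5 bases on the same strand, over all transcripts. Genes were called shared when their hairpin has a run of 20 bases found in a miRNA gene elsewhere. Folding used RNAfold (ViennaRNA 2.7.2). Differences between the libraries were tested by an exact binomial test on TMM sizes (edgeR 4.0.16), with 0.5 counts added for ratios; it was tested on simulated data. Alternatives were the counts of both strands, other thresholds and tolerances, other scaling (DESeq2 1.42.0) and each library left out. Every member with 10 or more counts is named, and mature arms are printed for the 15 highest of these where RefSeq holds them, with a few left out. Mir7068 and its seed partners were added after their values were seen. Members and lists were chosen with earlier results of these data known.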

Additional observations from a re-analysis of the deposited data

How the results depend on the processing

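Of 27 alternatives to 5 results, 18 left the value within 1.5 times of a count or within the SD of the share. The share with 1 library left out always lies within that SD, so its place among the 18 was fixed in advance. The number of members with 10 or more counts moved most: it was 64 with a threshold of 5, 9 with 20 and 17 with 5 in each library, and 9 to 14 when 1 library was left out and the threshold stayed at 10 (9 without replicate 1, 14 without replicate 2). The number with any count was 92 to 132, and 110 to 114 with 1 library. The share of sense counts was 0.0129% with both strands counted, 0.00451% of all reads, 0.0131% without Mir6944, and 0.0134% to 0.0151% with 1 library. Whole-intron members numbered 14 to 18 over tolerances of 0 to 10 bases. With library totals 1 member, Mir6971, was called different between the libraries, and in each other setting 0. At this depth a single member is counted a few times, so small differences between members do not resolve their order. No test of the order was made, including that of the first 3.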
